A study of Mus musculus with 28 samples.

Results

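The genes described here encode the voltage-gated calcium, sodium and potassium channels of mouse frontal cortex, with their auxiliary subunits and the related inward rectifier, tandem-pore, calcium-activated and HCN channels. They were chosen by name, as protein-coding genes listed in both deposited tables, leaving out Kcnj8. Their symbols begin with Cacna1, Cacna2d or Kcn, with Cacnb or Hcn and a number, or with Scn, a number and the letter a or b. They numbered 103 of the 14888 genes in both tables. Kcnj5 was in the table of the social stress cohort alone and was not used. RNA came from 28 male C57Bl/6 mice, 1 library per mouse, in 2 cohorts with a control group each. The first cohort held 8 mice under chronic social stress (CSS), which were isolated for 7 weeks and confronted another mouse 2 times a day during the last 20 days, and 8 controls (CSS_control), all 21 weeks old. The second held 6 mice made diabetic (T2D), as a model of type 2 diabetes, with 75 mg/kg streptozotocin, a toxin of pancreatic beta cells, and a diet giving 43.2% of its energy as fat for 21 weeks, and 6 controls (T2D_control), all 30 or 31 weeks old. The labels give no genetic alteration for any group.

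A neuron's action potential is carried upward by sodium entering through Scn channels and ended by potassium leaving through Kcn channels, while calcium channels turn the depolarisation into a calcium signal that drives transmitter release, firing patterns and gene expression. Each calcium or sodium channel has a large pore-forming alpha subunit, which holds the voltage sensors. Many, though not all, also have smaller auxiliary subunits. These set how much of the alpha subunit reaches the membrane and how quickly the channel opens and closes. Potassium channels assemble from separate pore subunits, so the mix of family members that a cell makes sets the current it carries.

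The total over the listed genes was 15187677 to 21917087 estimated counts per library in CSS, 14272202 to 37484321 in CSS_control, 14338463 to 22668796 in T2D and 12051071 to 21567136 in T2D_control. The 103 genes took 1.04 to 1.21% of a library's counts in CSS, 1.03 to 1.15% in CSS_control, 1.01 to 1.19% in T2D and 1.07 to 1.14% in T2D_control. Levels are given in CPM, the counts of a gene scaled to a common library total (the usual CPM unit), and levels of different genes are compared only as CPM per kb of annotated exon. RIN, the RNA integrity number, was 9 to 10 in CSS, 9.3 to 10 in CSS_control, 8.7 to 9.4 in T2D and 8.5 to 9.8 in T2D_control. Markers of excitatory cortical neurons were present in every library, with sums over 9 genes of 650 to 1462 CPM. Markers of striatal projection neurons, cells of the region below the cortex, were present as well and uneven, with sums over 13 genes of 1030 to 1700 CPM in CSS, 1134 to 2441 CPM in CSS_control, 351 to 2249 CPM in T2D and 449 to 1981 CPM in T2D_control. The length slope of a library, which is the slope of its log2 levels, relative to each gene's cohort mean, on log2 transcript length, was 0.0905 in CSS 5 and −0.0561 in CSS_control 5. It lay between −0.00598 and 0.0201 in the other CSS libraries and between −0.0252 and 0.00368 in the other controls. The median longest transcript was 4.39 kb for channel genes, beside 3.56 kb for the 13645 protein-coding genes of the CSS table, and the median genomic span, which does not enter the slope, was 59.7 kb, beside 26.7 kb. Both the striatal markers and the length slope are given beside the results they touch.

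RefSeq promoters (GRCm38.p6) could be matched for 71 of the 103 genes. The 4 genes of smallest p under social stress were calcium pore and Kv1 genes, so 3 members of those families are shown, while Cacna1a and Cacna1g had no entry. The 250 bases before the start of Cacna1b (chr2:24763153-24763402, minus strand), Cacna1i (chr15:80286988-80287237, plus strand) and Kcna3 (chr3:107035912-107036161, plus strand) are printed 5′ to 3′, with GC boxes in capitals.
Cacna1b: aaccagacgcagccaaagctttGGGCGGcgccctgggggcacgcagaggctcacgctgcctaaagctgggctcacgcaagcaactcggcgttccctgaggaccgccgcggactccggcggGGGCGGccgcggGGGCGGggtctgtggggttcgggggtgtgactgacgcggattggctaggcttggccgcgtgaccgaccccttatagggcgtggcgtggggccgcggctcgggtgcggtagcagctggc
Cacna1i: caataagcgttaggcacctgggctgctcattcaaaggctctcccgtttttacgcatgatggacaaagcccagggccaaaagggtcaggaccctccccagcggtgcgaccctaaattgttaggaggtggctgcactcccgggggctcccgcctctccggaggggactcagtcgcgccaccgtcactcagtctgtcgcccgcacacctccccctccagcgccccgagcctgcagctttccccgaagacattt
Kcna3: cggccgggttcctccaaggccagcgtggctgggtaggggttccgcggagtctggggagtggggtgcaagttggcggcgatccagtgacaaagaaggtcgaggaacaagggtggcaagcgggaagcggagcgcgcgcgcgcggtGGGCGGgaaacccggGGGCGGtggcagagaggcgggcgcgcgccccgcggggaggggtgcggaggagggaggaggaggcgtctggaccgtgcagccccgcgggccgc
The GC box, GGGCGG on either strand, occurred 3 times in the Cacna1b window, 2 times in that of Kcna3 and not in that of Cacna1i. Taking the first listed window of each gene, 53.5% of the matched channel genes held it, beside 32.9% of 27025 genes. The TATA box, TATAAA on either strand, was found for 2.82% of the channel genes and 12.97% of all genes, and the full cAMP response element TGACGTCA for 0 of the 71 and 1.62% of all genes. The median window of a channel gene had 14 CpG dinucleotides and 62.4% G and C, beside 6 and 52% over all genes. These matches describe letters in a window and were not tested against any change in level.

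Auxiliary beta subunits of the sodium channel, which shape its gating and placement in the membrane, were abundant per length. Scn2b stood at 74.4 and 81.0 CPM per kb in CSS and CSS_control, and at 67.4 and 72.1 CPM per kb in T2D and T2D_control. Scn4b was at 50.1 and 55.9 CPM per kb in CSS and CSS_control and at 51.7 and 40.7 CPM per kb in T2D and T2D_control, while Scn3b was at 20.0 and 18.4 CPM per kb in CSS and CSS_control and at 20.1 and 17.2 CPM per kb in T2D and T2D_control. Over libraries Scn2b ranged from 305 to 378 CPM in CSS and from 348 to 408 CPM in CSS_control, so that the groups overlapped.

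Among the pore-forming sodium channel genes Scn2a, whose product is a channel of excitatory neurons, made up 44.0% of the family's summed level per kb in CSS and 44.9% in CSS_control. It made up 42.6% in T2D and 44.2% in T2D_control. Scn8a (NaV1.6, the channel of mature axon initial segments and nodes of Ranvier) and Scn1a (NaV1.1, prominent in fast-spiking interneurons) followed with 23.3 and 20.5% in CSS and 23.5 and 20.7% in CSS_control. Scn3a, best known from the developing brain, had 8.71 and 8.14% in CSS and CSS_control. Scn7a and Scn9a, a channel known from peripheral sensory neurons, had 1.08 and 0.826% in CSS and 1.05 and 0.638% in CSS_control. Of these genes 5, Scn3a, Scn2a, Scn1a, Scn9a and Scn7a, lie in this order within 1328 kb of chromosome 2 (65457118 to 66784914, GRCm38), and their levels ranged from 53.7 CPM per kb for Scn2a to 0.767 CPM per kb for Scn9a in CSS_control.

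Calcium channels showed a flatter distribution over their pore genes. Cacna1e (CaV2.3, R-type) led with 24.1 CPM per kb in CSS and 22.2 CPM per kb in CSS_control, followed by Cacna1b (CaV2.2, the N-type channel of nerve terminals) with 18.1 and 16.8 CPM per kb. Cacna1a (CaV2.1, the P/Q-type channel of nerve terminals) had 14.8 and 12.4 CPM per kb. The T-type genes Cacna1i, Cacna1h and Cacna1g, which open near rest and support burst firing, had 13.1, 8.38 and 8.49 CPM per kb in CSS and 12.02, 7.96 and 6.38 CPM per kb in CSS_control. The L-type genes Cacna1d and Cacna1c, which couple activity to transcription, had 7.13 and 6.88 CPM per kb in CSS and 6.68 and 6.26 CPM per kb in CSS_control. Of the auxiliary subunits, Cacnb4 led the beta family with 38.8% of its sum in CSS and 39.2% in CSS_control, with 16.0% of its exon bases shared with a gene on the opposite strand, and Cacna2d1, the binding site of gabapentin, led the alpha2-delta family with 50.7 and 48.4%. Cacna2d4, best known from the retina, had the lowest level per length of the 103 genes by the mean over the 28 libraries, 0.277 CPM per kb, with Kcnh8 next at 0.321 CPM per kb. In T2D_control Kcnh8 was the lower one, at 0.212 CPM per kb, beside 0.298 CPM per kb for Cacna2d4. It was also the lower one over the 28 libraries per kb of the longest transcript (0.342 beside 0.453 CPM per kb).

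Of the potassium channels, Kcnj4 (Kir2.3, an inward rectifier) was highest per length at 51.3 CPM per kb in CSS and 50.7 CPM per kb in CSS_control. Kcnab2, an auxiliary beta subunit of Kv1 channels, had 48.9 and 49.4 CPM per kb. Kcnd2 (Kv4.2), which carries the A-type current of pyramidal dendrites, made up 73.2% of the Kv4 family in CSS and 74.7% in CSS_control. Kcna2 and Kcna1, subunits of axonal Kv1 channels, had 28.1 and 26.9% of the Kv1 family in CSS and 28.2 and 28.02% in CSS_control. Hcn2 made up 69.4% of the HCN family in CSS and 70.1% in CSS_control. With the longest transcript in place of all annotated exon, the leading gene changed in 3 of the 23 families. Calcium beta and Kv1 were among them, so Cacnb4 and Kcna2 no longer led. By that length Kcnab2 also stood above Kcnj4.

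**Figure D1:**
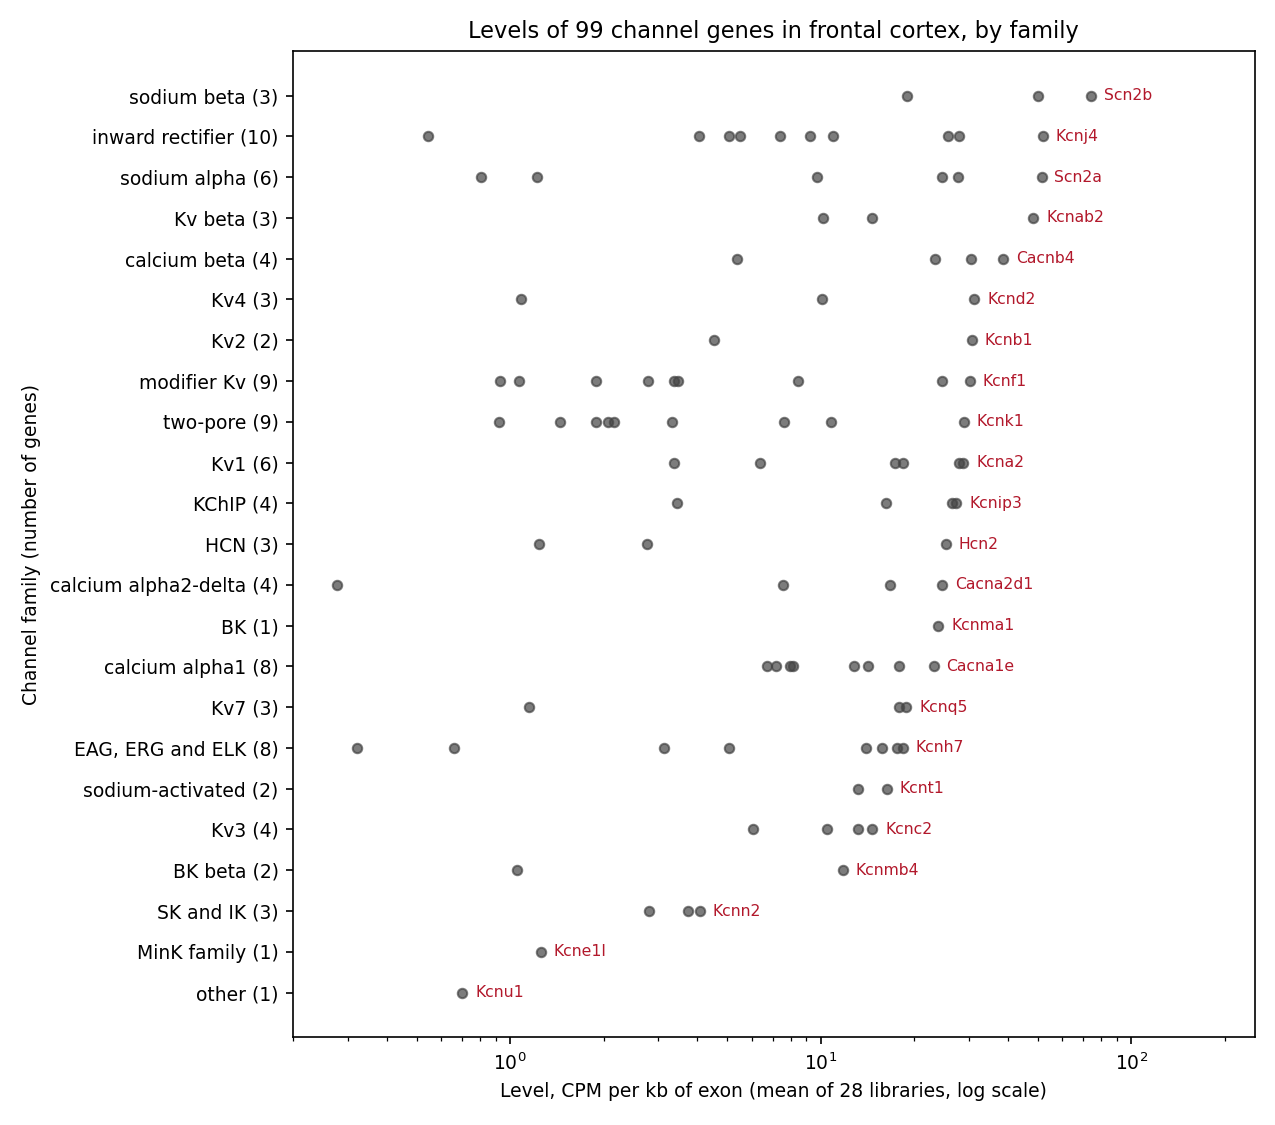
Each point is 1 of 99 channel genes, placed by its mean level over the 28 libraries in CPM per kb of exon on a log axis, in a row for its family, and the highest gene drawn in each family is named. Families run from the sodium beta subunits, where Scn2b is named, down to single genes such as Kcnu1, and the inward rectifiers span the widest range, from 0.546 CPM per kb for Kcnj14 to 52.0 CPM per kb for Kcnj4.

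The comparison of CSS with CSS_control asked which channel genes differed after social stress. Only Cacna1g and Cacna1a passed edgeR's quasi-likelihood test with Benjamini-Hochberg adjustment over the 15097 genes of the table, both higher in CSS. They were 2 of 103 channel genes called (1.94%), beside 4.52% of all genes called, 2.11% higher and 2.42% lower. No channel gene was called lower. Among cell type markers 4 of 8 of microglia and 2 of 8 of inhibitory neurons were called lower in CSS, and 1 of 6 of oligodendrocyte precursors, 1 of 7 of astrocytes, 2 of 6 of endothelium and 1 of 6 of meningeal fibroblasts were called higher, while none of the 9 of excitatory neurons was called. Their part in the channel gene values was not tested. In bulk tissue, more RNA per cell and more cells of a type that makes it cannot be told apart.

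Cacna1g (ENSMUSG00000020866, chromosome 11, 94408391 to 94474198, GRCm38) encodes CaV3.1, a T-type channel. Its lowest, median and highest values were 70.7, 86.3 and 103 CPM in the CSS libraries, against 54.5, 61.8 and 92.2 CPM in the CSS_control libraries. All 8 CSS libraries lay above the control mean, and 2 controls lay inside the CSS range, CSS_control 4 at 71.4 CPM and CSS_control 8 at 92.2 CPM. The gene averaged 86.1 ± 11.7 CPM in CSS and 64.6 ± 12.7 CPM in CSS_control (SD, n = 8 each), a log2 fold change of 0.41 ± 0.10 (SE, edgeR adjusted p = 0.0322). Markers of the thalamus, where this gene is known to be abundant, had sums over 6 genes of 35.1 to 136 CPM in CSS and 36.6 to 155 CPM in CSS_control. None of the 6 was called. Their median log2 fold change was 0.24, the same direction as that of Cacna1g. Their summed level went the other way, with means of 90.5 CPM in CSS and 96.4 CPM in CSS_control. The part of these markers in the Cacna1g difference was not tested.

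Cacna1a (ENSMUSG00000034656, chromosome 8, 84388440 to 84640246) had 148, 170 and 192 CPM as lowest, median and highest values in CSS, against 127, 140 and 160 CPM in CSS_control. The ranges overlapped between 148 and 160 CPM, and all 8 CSS libraries lay above the control mean. In the annotation 3.81% of its exon bases are shared with Gm16183 on the opposite strand. It averaged 169 ± 17.2 CPM in CSS and 141 ± 12.5 CPM in CSS_control (SD, n = 8 each), a log2 fold change of 0.26 ± 0.07 (edgeR adjusted p = 0.0325). Both calls were close to the threshold. Of 16 fits that left out 1 library, Cacna1g kept its call in 9 and lost it without CSS 4, 5 or 6 or CSS_control 1, 2, 3 or 5 (adjusted p at most 0.0704), and Cacna1a kept its call in 8 and lost it without CSS 2, 5, 6 or 7 or CSS_control 1, 3, 4 or 5 (at most 0.0714). Neither was called in 4 other fits. With the striatal markers as a covariate the log2 fold changes were 0.35 for Cacna1g and 0.26 for Cacna1a (adjusted p = 0.0978 and 0.0769), and without both CSS 5 and CSS_control 5 they were 0.36 and 0.22 (0.0956 and 0.0935). With the length slope as a covariate they were 0.27 and 0.17 (0.285 and 0.293). With the unexplained code number in the sample titles, 1 to 4 in CSS and 1 to 3 in CSS_control, as a factor they were 0.22 and 0.23 (0.354 and 0.275). Code 4 occurs in CSS alone, so its libraries add nothing to the group difference in that fit.

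**Figure D2:**
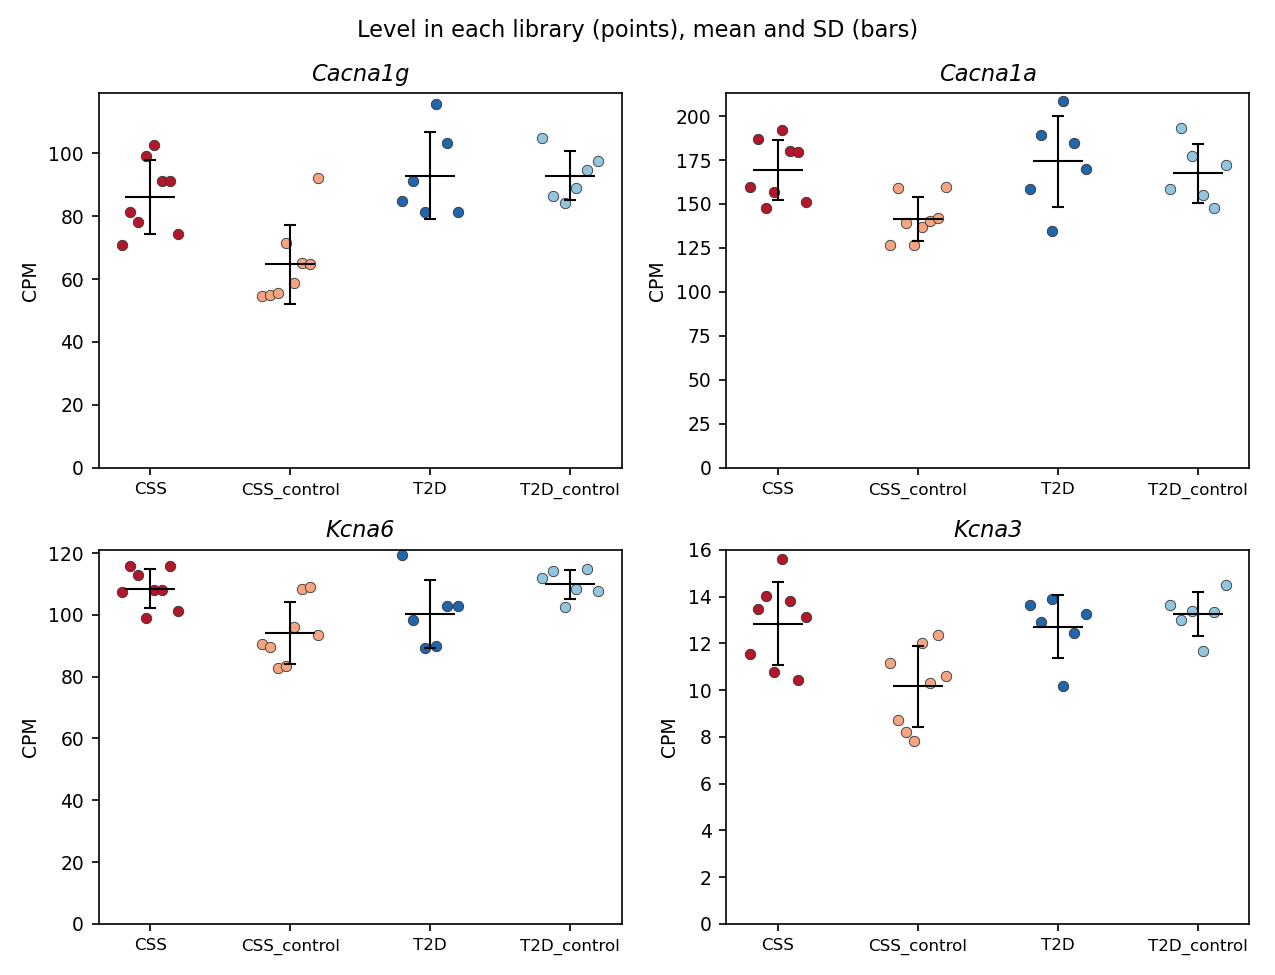
Points are the CPM of Cacna1g, Cacna1a, Kcna6 and Kcna3 in each library, and bars are the mean and SD of the CSS, CSS_control, T2D and T2D_control groups. The CSS means of Cacna1g and Cacna1a, 86.1 and 169 CPM, lie above the CSS_control means of 64.6 and 141 CPM, while the T2D and T2D_control groups overlap throughout.

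The other 6 pore-forming calcium channel genes did not pass, and all 8 had a positive log2 fold change in CSS, from 0.07 for Cacna1h to 0.41 for Cacna1g, with a median of 0.12. Over all genes the median was 0.01 and 51.3% were positive. CSS 5 stood highest of the 8 stressed libraries, with a median of 0.45 log2 units over the 8 genes relative to the control mean, against 0.03 to 0.16 in the other 7. It also had the lowest RIN of its cohort, 9. Cacna1e had 807 CPM in CSS 5, against 544 to 602 CPM in the other CSS libraries. CSS_control 5 stood lowest of the controls, with a median of −0.17, and CSS_control 4 highest, with a median of 0.19 and 7 of 8 genes above the control mean, which is above the median of every CSS library except CSS 5. The signs were the same in the alternative fits that changed the scaling, the tool or the filter. Without both CSS 5 and CSS_control 5 all 8 remained positive with a median of 0.05, and with the length slope as a covariate 3 of 8 were positive with a median of −0.02. With RIN as a covariate all 8 were positive with a median of 0.13. In the main fit the 4 Kv3 genes and the 2 sodium-activated potassium channel genes were also all positive, with medians of 0.11 and 0.13. So were the 2 Kv2 genes, with a median of 0.02, while the 3 Kv beta genes were all negative.

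**Figure D3:**
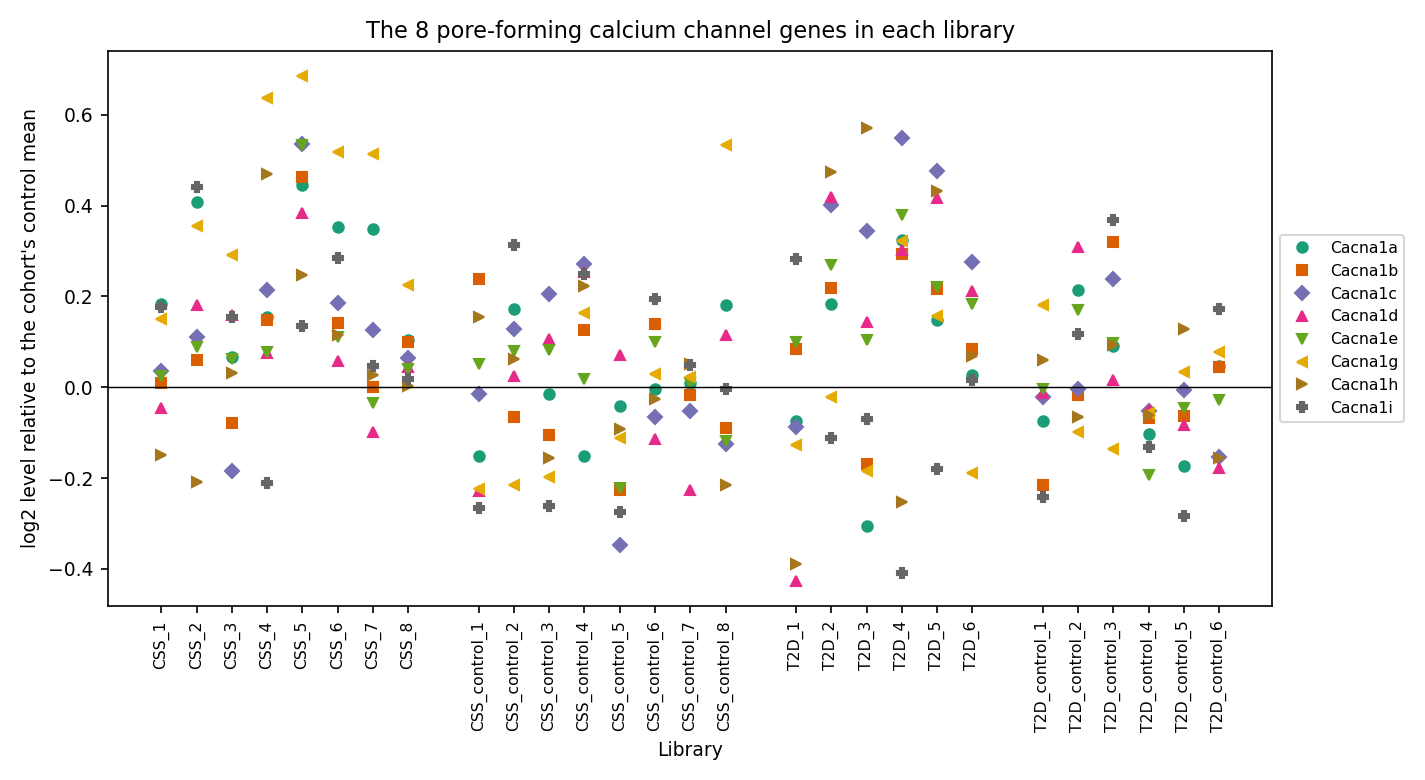
Each column is 1 library and each symbol 1 of the 8 pore-forming calcium channel genes, placed by its log2 level relative to the mean of its cohort's controls. The symbols of CSS 5 are the highest column, with a median of 0.45, the Cacna1g symbols of the CSS libraries lie between 0.15 and 0.69, and the highest symbol of the controls is Cacna1g in CSS_control 8, at 0.53.

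None of the auxiliary calcium channel genes passed in CSS. Cacna2d1 had 302, 315 and 331 CPM as lowest, median and highest values in CSS, against 263, 294 and 323 CPM in CSS_control, a log2 difference of 0.11 ± 0.04 (edgeR adjusted p = 0.138). The 4 beta subunits had log2 fold changes from −0.10 to 0.02. The 7 sodium pore genes did not pass either. Scn2a averaged 654 ± 47.6 CPM in CSS and 684 ± 33.4 CPM in CSS_control (log2 −0.07 ± 0.05), and Scn1a and Scn8a both had −0.05. Of the sodium beta subunits Scn2b had the smallest p, with 347 ± 26.0 CPM in CSS and 377 ± 20.9 CPM in CSS_control (log2 −0.12 ± 0.05, edgeR adjusted p = 0.165).

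Potassium channel genes came closest to the threshold in the Kv1 family. Kcna6 (Kv1.6) had 98.9, 108 and 116 CPM as lowest, median and highest values in CSS, against 82.7, 92.1 and 109 CPM in CSS_control, a log2 difference of 0.20 ± 0.06 (edgeR adjusted p = 0.0577). All 8 CSS libraries were above the control mean, and CSS_control 6 and 7 were the only controls above 98.9 CPM. Kcna6 was called by DESeq2 (adjusted p = 0.0216), with genes under a mean of 5 CPM left out (0.0480), with 1 surrogate variable (0.0285), without CSS_control 6 (0.0269) and without CSS_control 7 (0.0342). In the annotation 39.6% of its exon bases are shared with Gm26673 on the opposite strand, and whether counting used strand is not given in the sources used here. Kcna3 (Kv1.3) had 10.4, 13.3 and 15.6 CPM in CSS and 7.83, 10.5 and 12.3 CPM in CSS_control, a log2 difference of 0.34 ± 0.11 (edgeR adjusted p = 0.0772; DESeq2 adjusted p = 0.0392). None of their neighbours in the same gene clusters passed. Kcna2, beside Kcna3 on chromosome 3, had a log2 fold change of 0.00 ± 0.08, and Kcna1, which lies between Kcna5 and Kcna6 on chromosome 6, had −0.05 ± 0.08, with Kcna5 at −0.20 ± 0.17.

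None of the 10 inward rectifiers passed. Kcnj6 (GIRK2, opened by G protein-coupled receptors) had 33.2, 41.9 and 57.6 CPM in CSS, against 31.0, 32.8 and 39.6 CPM in CSS_control (log2 0.28 ± 0.10, edgeR adjusted p = 0.103), with CSS 2 the highest. It was called with 1 surrogate variable (adjusted p = 0.0372). Kcnj2 (Kir2.1) had 36.9, 39.0 and 44.2 CPM in CSS, against 36.4, 46.5 and 50.8 CPM in CSS_control (log2 −0.19 ± 0.07, edgeR adjusted p = 0.111). All 8 CSS libraries lay below the control mean, and it was called without CSS_control 6 (adjusted p = 0.0356). Kcnj10 (Kir4.1), the potassium channel of astrocytes, averaged 67.0 ± 20.3 CPM in CSS and 53.0 ± 5.38 CPM in CSS_control (log2 0.34 ± 0.14, edgeR adjusted p = 0.154), with CSS 5 at 112 CPM and the other CSS libraries at 45.4 to 75.7 CPM. Astrocyte markers summed to 4105 to 4947 CPM in CSS and 3699 to 4296 CPM in CSS_control, and 1 of 7 was called higher. Their part in the Kcnj10 value was not tested.

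At an unadjusted p under 0.05 there were 12 channel genes higher (11.7%, beside 11.0% of all genes) and 2 lower (1.94%, beside 10.5%). Besides those named above they included Kcnk9, which encodes the background channel TASK-3 (0.12), Kcnc1, the Kv3.1 gene of fast-spiking interneurons (0.13), and Kcng1 (0.36) and Kcng2 (0.38), whose products modify Kv2 channels and form no channel alone. Kcng2 was low, with 1.34% of its family's summed level per kb in CSS and 1.07% in CSS_control. The quartiles of the 103 log2 fold changes were −0.05 and 0.12. In none of the 103 genes did the library values of CSS and CSS_control fail to overlap, beside 0.609% of all genes.

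The comparison of T2D with T2D_control asked the same of the diabetic mice. No channel gene passed edgeR's test, and neither did any of the 15054 genes (0.0% called, while DESeq2 called 4 genes, none of them a channel gene). At an unadjusted p under 0.05 there were 7 channel genes higher (6.8%, beside 447 or 2.97% of all genes) and 1 lower (0.971%, beside 432 or 2.87%). Every adjusted p among these 8 was 0.825. No channel gene had groups that failed to overlap, beside 0.146% of all genes.

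Of these 8, the L-type gene Cacna1c had the smallest p. Its lowest, median and highest values were 123, 169 and 191 CPM in T2D, against 117, 129 and 154 CPM in T2D_control, a log2 difference of 0.34 ± 0.10, and 5 of 6 T2D libraries lay above the control mean. Hcn4, the pacemaker channel of the heart and of thalamic relay neurons, had 4.72, 8.11 and 14.8 CPM in T2D, against 3.50, 5.25 and 6.72 CPM in T2D_control (log2 0.78 ± 0.24). T2D 3 was its highest library and T2D 1 its lowest, which also had the highest and the lowest thalamic marker sum of the group. Those sums ranged from 36.3 to 147 CPM in T2D and from 42.7 to 96.3 CPM in T2D_control, and their part in the Hcn4 values was not tested. Cacna1e averaged 626 ± 46.9 CPM in T2D and 542 ± 46.8 CPM in T2D_control (SD, n = 6 each), higher than the control mean in 6 of 6 T2D libraries. Kcna4 (Kv1.4, a fast-inactivating axonal subunit) had 60.5, 100.8 and 118 CPM in T2D, against 47.0, 70.1 and 101.1 CPM in T2D_control. Its lowest library was T2D 4 in the one group and T2D_control 6 in the other, which are also the libraries with the lowest striatal marker sums. The others were Cacnb2 (log2 0.25), Scn3b (0.22), Kcne1l (0.56) and, lower in T2D, Cacna2d4 (−0.61), of which Kcne1l and Cacna2d4 stayed under 5 CPM in every library. Over the 8 pore-forming calcium channel genes 7 had a positive log2 fold change in T2D, with a median of 0.16. With the length slope as a covariate 5 were positive with a median of 0.08, and with RIN 6 with a median of 0.07. The length slopes were −0.0462 to 0.0372 in T2D and −0.0425 to 0.0159 in T2D_control. Cacna1g and Cacna1a averaged 92.9 ± 13.9 and 174 ± 25.9 CPM in T2D and 92.8 ± 7.82 and 167 ± 16.8 CPM in T2D_control, with log2 fold changes of 0.00 ± 0.09 and 0.06 ± 0.10.

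**Figure D4:**
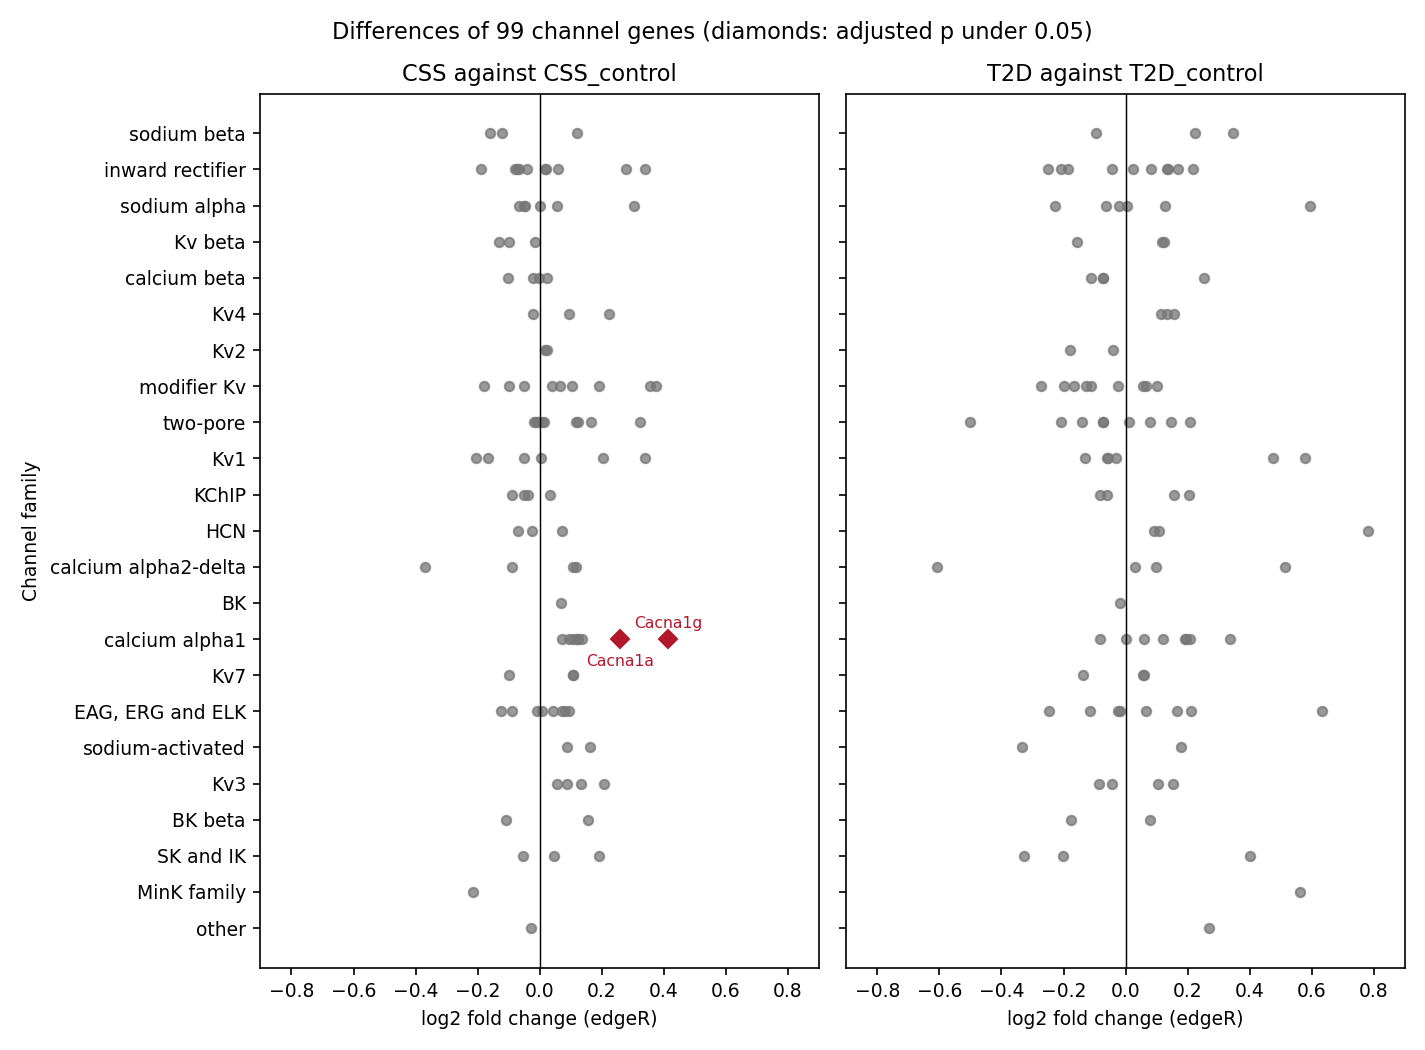
Each point is the edgeR log2 fold change of 1 of 99 channel genes, CSS against CSS_control on the left and T2D against T2D_control on the right, in a row for its family. Diamonds mark an adjusted p under 0.05, which Cacna1a and Cacna1g alone reached, in CSS. The calcium alpha1 row lies right of 0 in CSS, from 0.07 to 0.41 (3 of 8 genes with the length slope as a covariate). The Kv2, Kv3 and sodium-activated rows also lie right of 0 in CSS, while the rows of most other families straddle 0 in both cohorts.

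The difference between the cohorts' changes was tested in a fit of all 28 libraries. It called 12 of 14888 genes (0.0806%), 0.047% with a larger and 0.0336% with a smaller change in CSS, and no channel gene. At an unadjusted p under 0.05 the channel genes numbered 6 with a larger CSS change (5.83%, beside 6.0% of all genes) and 5 with a smaller one (4.85%, beside 6.36%). The CSS change of Cacna1g exceeded its T2D change by 0.41 ± 0.15 log2 units (edgeR adjusted p = 0.257), so a difference between the 2 responses did not pass. The smallest unadjusted p belonged to Kcna6, at 0.20 in CSS and −0.13 in T2D (difference 0.33 ± 0.10, edgeR adjusted p = 0.154), and to Kcna4, at −0.17 in CSS and 0.48 in T2D (difference −0.65 ± 0.19, adjusted p = 0.158). Cacnb2 followed, at −0.10 in CSS and 0.25 in T2D (difference −0.36 ± 0.11, adjusted p = 0.172).

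A few channel genes varied widely between libraries of the same group. The median within-group SD on the log2 scale was 0.19 for channel genes and 0.18 for all genes in the CSS cohort, and 0.23 and 0.21 in the T2D cohort. Scn9a had 0.65 in the CSS cohort and 1.02 in the T2D cohort. Its lowest, median and highest values were 3.87, 12.1 and 20.1 CPM in CSS and 6.90, 7.93 and 17.1 CPM in CSS_control, and 3.32, 11.4 and 19.3 CPM in T2D and 2.07, 5.58 and 14.6 CPM in T2D_control. The groups of each cohort overlapped over most of their range, and the gene did not pass in CSS (log2 0.31 ± 0.30, edgeR adjusted p = 0.591) or in T2D (0.60 ± 0.51, adjusted p = 0.867). In 3 of 4 groups the library lowest in Scn9a was also the one lowest in the summed thalamic markers, and in 3 of 4 the highest was the same library as well. The exceptions were CSS_control 6, lowest in Scn9a, and T2D 5, highest in Scn9a. T2D 4 had 6.66 CPM of Scn9a at a marker sum of 130 CPM. Scn9a was picked for this description after its values were seen.

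Scn4b, known for its high level in striatal projection neurons and for its part in resurgent sodium current, had its highest library at the highest striatal marker sum in 3 of 4 groups and its lowest at the lowest sum in 2 of 4, both of these in the T2D cohort. It had 188, 246 and 321 CPM in CSS, 188, 264 and 421 CPM in CSS_control, 74.6, 277 and 388 CPM in T2D and 116, 190 and 363 CPM in T2D_control. Its value of 74.6 CPM in T2D 4 stood beside a striatal marker sum of 351 CPM, and its 421 CPM in CSS_control 2 beside 2441 CPM. Its neighbour Scn2b lies within the same 36.4 kb of chromosome 9 (45117782 to 45154152), and had a within-group SD of 0.13 on the log2 scale in the T2D cohort, against 0.72 for Scn4b. Scn4b did not pass in either cohort, at −0.16 ± 0.16 in CSS (edgeR adjusted p = 0.595) and 0.35 ± 0.36 in T2D (adjusted p = 0.893).

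**Figure D5:**
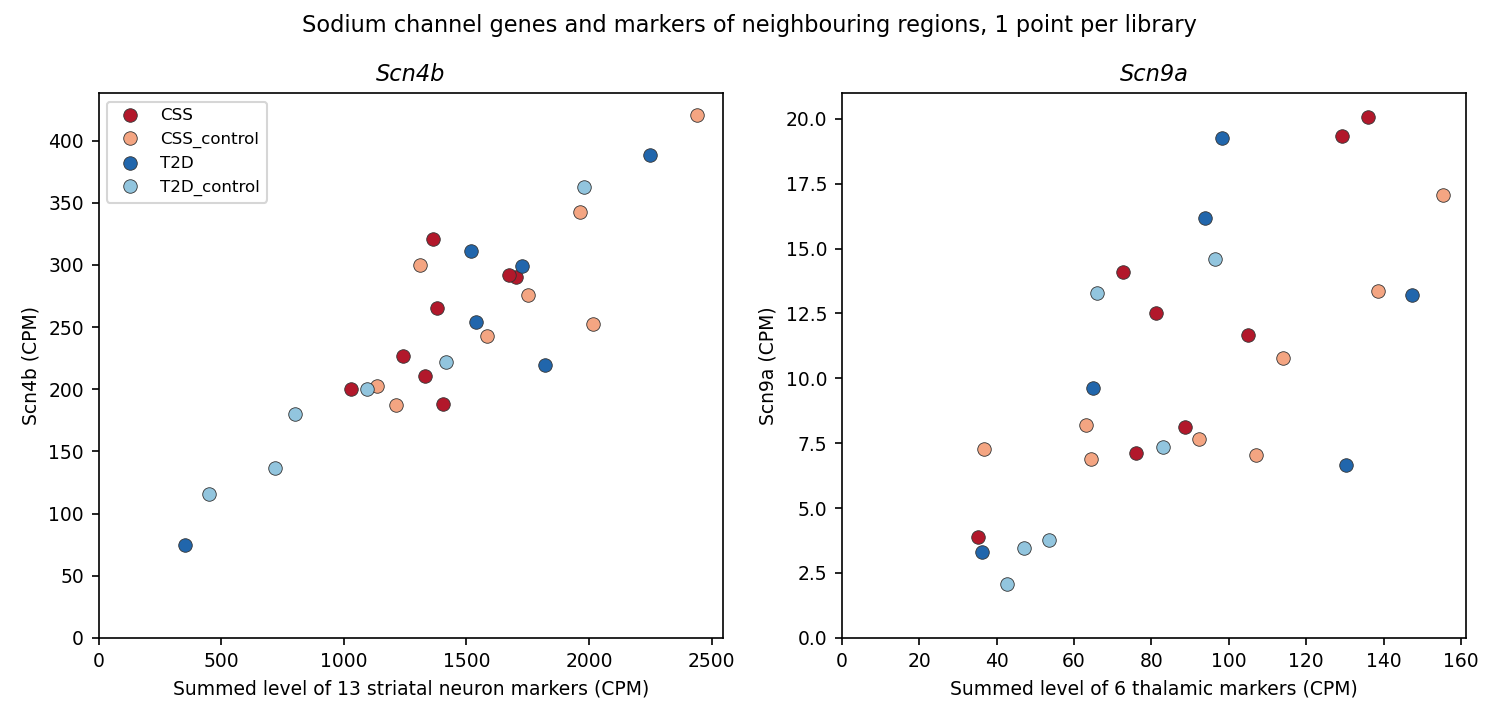
Each point is 1 library, with Scn4b in CPM against the summed CPM of 13 striatal markers on the left and Scn9a in CPM against the summed CPM of 6 thalamic markers on the right, coloured by group. The lowest points are 74.6 CPM of Scn4b in T2D 4 and 2.07 CPM of Scn9a in T2D_control 6.

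Genes whose products bind, anchor or modify these channels gave 4 calls among 44 measured of 45 listed in CSS, all lower, and none in T2D or in the difference between the cohorts. Over all genes 2.42% were called lower and 4.52% in either direction in CSS, 0.0% were called in T2D and 0.0806% in the difference. The list of these partner genes was chosen with earlier results of these data known. Its number of calls therefore cannot show an excess over all genes. Calm2 and Calm3, of which each encodes the calcium sensor calmodulin, a resident subunit of calcium, Kv7, SK and sodium channels, fell by 0.41 ± 0.09 and by 0.47 ± 0.10 on the log2 scale (edgeR adjusted p = 0.0160 and 0.0177). The 2 genes encode the same protein, and reads shared between them could have been divided by the estimate. Calm2 averaged 1126 ± 147 CPM in CSS and 1495 ± 189 CPM in CSS_control, and Calm3 averaged 1008 ± 132.3 CPM in CSS and 1396 ± 244 CPM in CSS_control (SD, n = 8 each). Cacng7, a member of the calcium channel gamma family that acts on AMPA receptors, fell to 49.98 ± 3.94 CPM in CSS, against 60.6 ± 5.11 CPM in CSS_control (log2 −0.28 ± 0.06, adjusted p = 0.0192). Csnk2a1, a catalytic subunit of casein kinase 2, fell to 162 ± 10.2 CPM in CSS, against 193 ± 23.0 CPM in CSS_control (log2 −0.25 ± 0.06, adjusted p = 0.0325). Calm2, Calm3 and Cacng7 kept their calls in all 16 fits that left out 1 library, and Csnk2a1 lost its call without CSS 5 or 6 or CSS_control 1 or 2 (adjusted p at most 0.0720) and without both CSS 5 and CSS_control 5 (log2 −0.25, adjusted p = 0.0663). With the length slope as a covariate Calm2 was at −0.31 (adjusted p = 0.153), Calm3 at −0.38 (0.147), Cacng7 at −0.34 (0.0455) and Csnk2a1 at −0.22 (0.192). With the striatal markers as a covariate the log2 fold changes were −0.35, −0.40, −0.26 and −0.20 in the same order, and the adjusted p was 0.0503, 0.0592, 0.0609 and 0.0965. With the title code number as a factor they were −0.26, −0.29, −0.21 and −0.17, and the adjusted p was 0.240, 0.267, 0.251 and 0.349. The median log2 fold change over the 44 genes was 0.003 in CSS.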

How the data were processed

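RNA from mouse frontal cortex was sequenced in 28 libraries, grouped by the treatment and title labels. For each cohort a gene table was deposited, whose values are estimated counts; Salmon 1.1.0 and the build mm10 are named per the submitters' processing notes. The summing of transcripts, any scaling for length and the use of strand were not given in the sources used here. No nonzero value was whole (tolerance 1e-06), so values were rounded before testing. Each cohort, and the difference of the 2 changes over the 14888 shared genes, was fitted on all genes with edgeR 4.0.16 (robust quasi-likelihood F test, TMM scaling, default filter, which removed 0 genes, Benjamini-Hochberg threshold 0.05) under R 4.3.3, and checked on simulated counts. Alternatives used DESeq2 1.42.0, limma 3.58.1 and sva 3.50.0, and log2 CPM for library values had a prior count of 2. An SE is the size of the log2 fold change over the square root of F. Exon lengths and positions came from GENCODE M21 (GRCm38), which held 99.8% of the identifiers, and figures were drawn with matplotlib 3.10.9.

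The channel genes, families, partner and marker lists were chosen with earlier results of these data known. Named were called channel genes, the 5 of smallest p in each direction per comparison, the highest per length in each family and a fixed list, 68 in all. Other channel genes, among them Scn7a, Scn9a, Kcna5, Kcnk9, Kcng1 and Kcng2, were named after their values were seen. Each library came from 1 mouse. Some channel genes, which enter the counts, are not reported here or drawn.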

Additional observations from a re-analysis of the deposited data

Results flagged for a closer look

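A library was marked when its gap to the nearest other library of its group exceeded Dixon's 95% critical value, which chance does for about 1 in 20 groups, and 18 of the 260 combinations of 65 named genes and 4 groups were marked. CSS 5 was the high library for 5 genes. It had 229 CPM of Cacna1b (157 to 184.3 CPM in the other CSS libraries), 807 CPM of Cacna1e (544 to 602 CPM), 132.3 CPM of the Kv4 gene Kcnd3 (83.4 to 106 CPM), 112 CPM of Kcnj10 (45.4 to 75.7 CPM) and 67.6 CPM of the SK gene Kcnn3 (33.1 to 46.5 CPM). CSS 2 was high for 2, with 130 CPM of Cacnb1 (95.2 to 110 CPM) and 57.6 CPM of Kcnj6 (33.2 to 44.4 CPM). Among CSS_control libraries, CSS_control 8 was high for Cacna1g with 92.2 CPM (54.5 to 71.4 CPM in the others), and CSS_control 2 was low for Kcnd3 with 69.8 CPM (87.9 to 103.3 CPM).

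In the diabetes cohort, T2D 4 was low for Kcna4 with 60.5 CPM (97.4 to 118 CPM in the other T2D libraries) and for Kcnj4 with 74.4 CPM (117 to 139 CPM), and it had the lowest striatal marker sum of its group. T2D 1 was high for the SK gene Kcnn1 with 17.2 CPM (8.94 to 11.5 CPM) and low for Scn3b with 81.7 CPM (107 to 119 CPM). T2D_control 3 had 154 CPM of Cacna1c (117 to 130 CPM in the other controls), 257 CPM of Cacna2d1 (303 to 322 CPM), 198 CPM of Kcnab1 (94.5 to 119 CPM) and 34.4 CPM of the BK beta gene Kcnmb4 (42.5 to 47.1 CPM). The same library had the highest striatal marker sum and, at 8.5, the lowest RIN of its group. T2D_control 2 had 109 CPM of Cacna1d (77.8 to 89.0 CPM). The part of the striatal marker sums and of RIN in these values was not tested.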

How the results depend on the processing

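The 683 calls over all genes in CSS became 1313 with DESeq2, 110 with the length slope, 117 with the striatal markers and 2 with the title code number in the model, 232 without both CSS 5 and CSS_control 5 (chosen after seeing the data), and 222 to 794 with 1 library left out. The fit with the code number compares fewer libraries, since code 4 occurs in CSS alone. The 2 channel genes called higher in CSS became 4 with DESeq2 (also Kcna6 and Kcna3), 4 with 1 surrogate variable, 0 with the length slope, the striatal markers or the code number, 0 without both CSS 5 and CSS_control 5, and 0 to 3 with 1 library left out, and channel genes called lower numbered 0 to 1. In T2D, calls over all genes were 4 with DESeq2 and 0 in the other alternatives, and no channel gene was called in any. The 12 calls of the difference between cohorts became 6 with upper-quartile scaling, 130 with DESeq2, of which 1 was a channel gene, 24 with genes under 5 CPM left out, 41 with the length slope, 0 with limma voom, RIN, 1 surrogate variable, the striatal markers or either pair of libraries left out, and 0 to 32 with 1 library left out. Same-numbered libraries, taken relative to their group means, correlated at −0.16 to 0.33 in the CSS cohort and −0.01 to 0.13 in the T2D cohort. These correlations cannot settle whether the numbers pair the samples, and the main fits used no pairing. With a replicate block there were 478 calls in CSS, with the same 2 channel genes, 0 in T2D and 32 in the difference. The Cacna1g and Cacna1a calls also held with DESeq2 size factors, upper-quartile scaling, limma voom, a minimum mean of 5 CPM, RIN and 1 surrogate variable. A fit with no filter was the same as the main fit, since the default filter removed 0 genes. Of the 68 named genes, 35 had a level per length that moved by more than 1 SD when the longest transcript replaced all annotated exon. Totals were 12051071 to 37484321 estimated counts, and the relative counting error is largest for genes of a few CPM such as Cacna2d4.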
